A study of Homo sapiens with 6 samples.

Results

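A set of 10 desmosomal genes was followed through the knockdown of ZEB1 in SW480 cells, a human colorectal adenocarcinoma line. They were the desmosomal cadherins DSG2, DSC2 and DSC3, the armadillo proteins JUP, PKP2, PKP3 and PKP4, and the plakins DSP, PPL and EVPL. Each was taken by its symbol, and all 10 symbols matched exactly 1 of the 32029 genes in the deposited tables. The series held 6 RNA-seq libraries of total RNA. Of these, 3 came from SW480 cells given control siRNA (siNC, called siControl in the study), and 3 from cells given siRNA against ZEB1 (siZEB1). The design text gives 48 h after transfection for both groups. All libraries come from 1 cell line, and no siRNA sequence or dose was given in the sources used here. The study describes the 3 samples of each group as biological replicates, so the spread below is that between these cultures.

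A desmosome is a spot weld between epithelial cells. Desmogleins and desmocollins are cadherins that reach across the gap and hold the neighbouring cell. Inside the cell their tails bind plakoglobin and the plakophilins, which carry armadillo repeats, and these in turn bind desmoplakin, which anchors keratin filaments. Periplakin and envoplakin are related plakins, best known from the cornified envelope of the skin. ZEB1 is a zinc finger repressor that binds E-box sequences and silences epithelial genes, CDH1 being the best known. The comparison of siZEB1 with siNC asks which desmosomal transcripts differ once ZEB1 is lowered.

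Libraries held between 19040636 and 22357633 counted reads. Levels are given as TMM-scaled CPM, reads of a gene relative to the size of its library, with the mean ± SD over 3 libraries. Changes are the log2 fold change of siZEB1 over siNC with its standard error (SE). Unless another test is named, p-values are from edgeR's quasi-likelihood test, adjusted by the Benjamini-Hochberg method over the 14996 genes tested, and a gene is called at an adjusted p under 0.05. ZEB1 itself had 908 to 1276 reads with siNC and 132 to 162 with siZEB1, and fell by 2.85 on the log2 scale (SE 0.11). The epithelial markers EPCAM, KRT8, KRT18, KRT19 and CDH1 were all detected. KRT8 and KRT18 were not called, and EPCAM went from 54.7 ± 2.29 to 454 ± 14.1 CPM (adjusted p = 2.54e-15). Of the colonic markers, CDX2 was at 103 CPM with siNC and 41.8 CPM with siZEB1, and VIL1 at 4.08 and 20.7 CPM. CDH17 and LGALS4 had at most 9 reads in any library, and CDX1 was not listed. The leukocyte markers CD3E and CD68 had at most 3 reads. Within each group, libraries differed by transcript length, the third library most. In siNC replicate 3, genes with a longest transcript of 6000 bases or more lay a median of 0.09 below their group mean on the log2 scale, and those under 2000 bases lay 0.08 above it. In siZEB1 replicate 3 the shift was the opposite, 0.08 above for long and 0.08 below for short transcripts.

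Of the 10 desmosomal genes, 8 passed the filter on low counts, and DSC2 and DSC3 did not. Among these 8, PKP3, JUP, PPL, PKP2 and DSP rose with siZEB1, PKP4 and EVPL fell, and DSG2 was not called. The rises of PKP3, JUP and PPL were between 1.79-fold and 2.13-fold, and the other called changes were smaller than 1.5-fold. Among all genes tested, 40.2% were called, 19.0% higher and 21.2% lower, so the calls of 5 members as higher and 2 as lower are read against a background in which calls were frequent. The libraries of the 2 groups did not overlap for 6 of the 8 members, 4 higher and 2 lower, and for 49.5% of all genes tested, 24.3% higher and 25.3% lower. Positions are those of GENCODE 29 on GRCh38. RNA of whole cultures was measured, so fewer cells with a transcript and less of it per cell cannot be told apart. Above a 1.5-fold change, 3 members were higher and 0 lower, against 6.36% and 8.57% of all genes tested. The median log2 fold change was 0.26 for the 8 members and -0.0055 for all genes tested. Members were chosen with earlier results of these data known, so these comparisons describe the members and do not test for an excess.

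**Figure D1:**
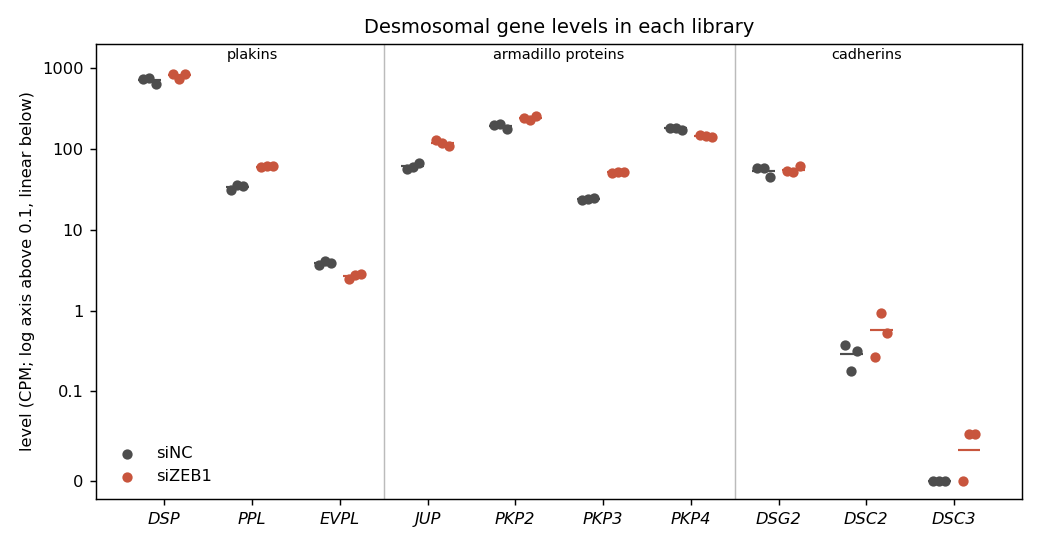
Level of each desmosomal gene in each library, in CPM, on an axis that is logarithmic above 0.1 and linear below. Each point is 1 library, grey for siNC and red for siZEB1, and the short lines are group means of 3. The groups stand apart at PPL, JUP, PKP2 and PKP3, which were higher with siZEB1, and at PKP4 and EVPL, which were lower, and overlap at DSP, DSG2, DSC2 and DSC3.

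The armadillo proteins showed both the largest rise and a fall. PKP3 (ENSG00000184363, chr11:392614-404908, + strand), a plakophilin found in nearly all desmosomes and a reported repression target of ZEB1, had 502, 532 and 478 reads in siNC replicates 1 to 3. It had 956, 999 and 984 reads in siZEB1 replicates 1 to 3. Every siZEB1 library thus lay well above every siNC library. The level of PKP3 went from 24.1 ± 0.647 to 51.3 ± 0.661 CPM (SD, n = 3 each). On the log2 scale it rose by 1.09 (SE 0.072), with an adjusted p of 3.84e-09, or 2.13-fold. The gain was many times the spread between libraries, which was under 1 CPM in each group.

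JUP (ENSG00000173801, chr17:41754604-41786931, - strand) encodes plakoglobin, the desmosomal relative of β-catenin that also serves adherens junctions. It had 57.2, 60.4 and 66.4 CPM in the siNC libraries and 128, 119 and 110 CPM in the siZEB1 libraries. The lowest siZEB1 library was above the highest siNC library. JUP rose by 0.96 on the log2 scale (SE 0.075), with an adjusted p of 3.3e-08, to a 1.94-fold level.

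PKP2 (ENSG00000057294, chr12:32790745-32896840, - strand) is the plakophilin of simple epithelia and heart muscle, and it had the highest level per length of the plakophilins. Its level was 199, 203 and 178 CPM with siNC and 242, 231 and 253 CPM with siZEB1. The groups did not overlap, although siNC replicate 3 was the lowest library and siZEB1 replicate 3 the highest. PKP2 changed by 0.33 on the log2 scale (SE 0.064, adjusted p = 0.000579), or 1.25-fold. The change was 0.27 without siNC replicate 3 and 0.29 without siZEB1 replicate 3. Any part of the length shift of these libraries in the PKP2 result was not tested.

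PKP4 (ENSG00000144283, chr2:158456964-158682879, + strand), also called p0071, is shared between desmosomes and adherens junctions and also acts in cytokinesis. It had 182, 184 and 174 CPM with siNC and 150, 144 and 142 CPM with siZEB1. All 3 siZEB1 libraries were below all 3 siNC libraries. On the log2 scale PKP4 changed by -0.31 (SE 0.058), or -19.3%, with an adjusted p of 0.000417. An antisense gene, PKP4-AS1, covers 4.4% of the exonic bases of PKP4, and whether counting used the strand is not given in the sources used here.

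Among the plakins, PPL rose and EVPL fell. PPL (ENSG00000118898, chr16:4882507-4960741, - strand) encodes periplakin, which binds keratins and vimentin. Its libraries held 31.0, 35.7 and 34.8 CPM with siNC and 59.6, 61.4 and 61.0 CPM with siZEB1. These groups were far apart, and the siZEB1 libraries were nearly equal to each other. PPL reached a 1.79-fold level, or 0.84 on the log2 scale (SE 0.074), with an adjusted p of 1.22e-07.

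EVPL (ENSG00000167880, chr17:76004502-76027452, - strand) encodes envoplakin, the dimer partner of periplakin in the cornified envelope. It was scarce, with 78, 92 and 75 reads in the siNC libraries and 46, 53 and 54 reads in the siZEB1 libraries. The siZEB1 libraries were all below the siNC libraries. Its level went from 3.89 ± 0.22 to 2.67 ± 0.206 CPM (SD, n = 3 each). That is -31.3%, or -0.54 on the log2 scale (SE 0.17), with an adjusted p of 0.0162. The call was lost without siNC replicate 2 (adjusted p = 0.0642), without siZEB1 replicate 1 (adjusted p = 0.0662) and with DESeq2's Wald test (adjusted p = 0.0535).

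DSP (ENSG00000096696, chr6:7541575-7586717, + strand) encodes desmoplakin, the obligate link from plaque to keratin, and had the highest level per length of all members. Its level was 742, 763 and 642 CPM in the siNC libraries and 839, 744 and 860 CPM in the siZEB1 libraries. The groups overlapped, since siZEB1 replicate 2 lay below siNC replicate 2. DSP was called as higher by 0.19 on the log2 scale (SE 0.068), with an adjusted p of 0.0379. Without siNC replicate 3 it was 0.11 (adjusted p = 0.128), and the call was also lost without siZEB1 replicate 1 (adjusted p = 0.145), without siZEB1 replicate 3 (adjusted p = 0.118) and with scaling by total counts only (adjusted p = 0.0502). The longest DSP transcript has 9796 bases, and its low siNC and high siZEB1 libraries were those numbered 3, in which long transcripts were shifted. The part of that shift in the DSP result was not tested.

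**Figure D2:**
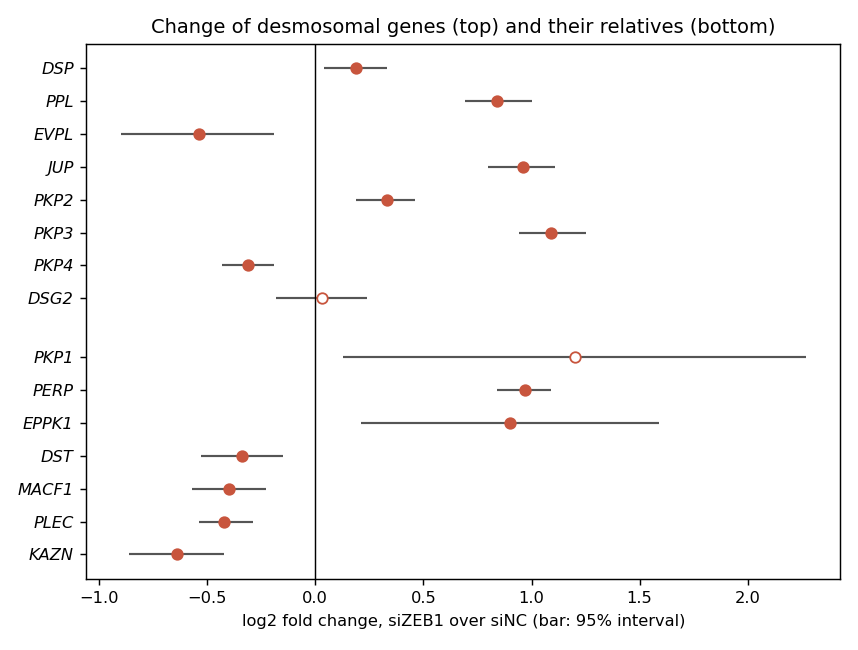
Log2 fold change of siZEB1 over siNC with its 95% interval from edgeR, for the 8 desmosomal genes tested (top) and 7 related desmosomal and plakin genes tested (bottom). Filled points are called at an adjusted p under 0.05. PKP3, at 1.09, is the highest of the 8, and EVPL, at -0.54, the lowest.

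Of the desmosomal cadherins, DSG2 was not called and DSC2 and DSC3 were close to undetected. DSG2 (ENSG00000046604, chr18:31498043-31549008, + strand), the desmoglein of simple epithelia, had 58.6, 58.9 and 44.9 CPM with siNC and 53.2, 51.4 and 61.9 CPM with siZEB1. The groups overlapped across most of their range. The log2 fold change of DSG2 was 0.03 (95% interval -0.18 to 0.24, adjusted p = 0.82), so changes within that interval could not be told from none. Its sign turned to -0.08 without siNC replicate 3 and to -0.05 without siZEB1 replicate 3.

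DSC2 (ENSG00000134755, chr18:31058840-31102522, - strand) is the desmocollin that accompanies DSG2 in simple epithelia. It had 8, 4 and 6 reads in the siNC libraries and 5, 18 and 10 reads in the siZEB1 libraries. The groups overlapped, and siZEB1 replicate 2 held more reads than the other siZEB1 libraries together. Summed over each group these reads correspond to 0.286 CPM (exact Poisson 95% interval 0.17 to 0.452) and 0.576 CPM (0.397 to 0.81), intervals that cover counting error only. When the filter was left off, DSC2 had a log2 fold change of 0.99 (SE 0.52) and was not called (adjusted p = 0.219).

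DSC3 (ENSG00000134762, chr18:30990008-31042815, - strand), a desmocollin of basal layers of stratified epithelia, had 0 reads in all siNC libraries and 0, 1 and 1 reads in the siZEB1 libraries. A count of 0 in the 3 siNC libraries together allows a level of up to 0.0477 CPM by the limit of 3 counts, or 0.0586 CPM by the exact Poisson 95% interval used for DSC2, again for counting error only. At this depth no difference in DSC3 was detectable. DSG2 thus accounted for 99.7% ± 0.104 of the summed level per length of DSG2, DSC2 and DSC3 with siNC. With siZEB1 it accounted for 99.4% ± 0.375 (SD, n = 3 each). Other cadherins, desmosomal or classical, were not part of this sum.

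Levels of different genes were set side by side only after division by the length of their merged exons, as CPM per kilobase. With siNC the order from the highest level per length was DSP, PKP2, PKP4, JUP, DSG2, PKP3, PPL, EVPL, DSC2 and DSC3. In that order no neighbours overlapped between libraries. With siZEB1 JUP passed PKP4, and PKP3 passed DSG2. DSP led in both groups, at 70.9 ± 6.4 and 80.7 ± 6.15 CPM per kilobase, and PKP2 followed at 27.4 ± 1.91 and 34.4 ± 1.55 CPM per kilobase (SD, n = 3 each). PKP3 went from 6.35 ± 0.171 to 13.6 ± 0.175 CPM per kilobase, which brought it close to PKP4 at 15.2 ± 0.449. With the longest transcript as the length, DSG2 and PKP3 overlapped with siNC, and PPL and DSG2 exchanged places and overlapped with siZEB1. By that length PKP3 was at 18.3 ± 0.235 and PKP4 at 25.1 ± 0.741 CPM per kilobase with siZEB1, so they were close only per merged exon.

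**Figure D3:**
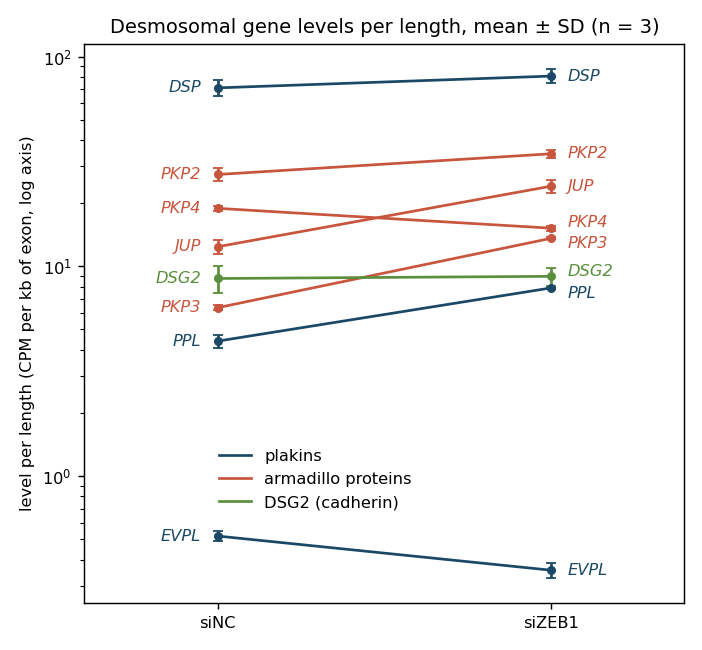
Level per length of 8 desmosomal genes, in CPM per kilobase of merged exon on a log axis, as the mean ± SD of 3 libraries with siNC (left) and siZEB1 (right). The lines of JUP and PKP4 cross, as do those of PKP3 and DSG2, and DSP stays the highest.

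The make-up of the armadillo genes, taken as each gene's share of their summed level per length, differed between the groups. PKP4 made up 28.8 to 29.4% in the siNC libraries and 17.2 to 17.6% in the siZEB1 libraries. JUP went from 19.1% ± 1.81 to 27.6% ± 1.64, and PKP3 from 9.77% ± 0.473 to 15.5% ± 0.526 (SD, n = 3 each). For each of these 3 genes the groups did not overlap. The share of PKP2 was 42.1% ± 2.05 and 39.4% ± 1.76, and there the groups overlapped. A share also falls when other genes of the sum rise, and the level of PKP4 itself changed by -19.3%. Among the plakins, the share of PPL went from 5.84% ± 0.712 to 8.91% ± 0.719, and that of EVPL from 0.686% ± 0.0646 to 0.402% ± 0.0458.

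**Figure D4:**
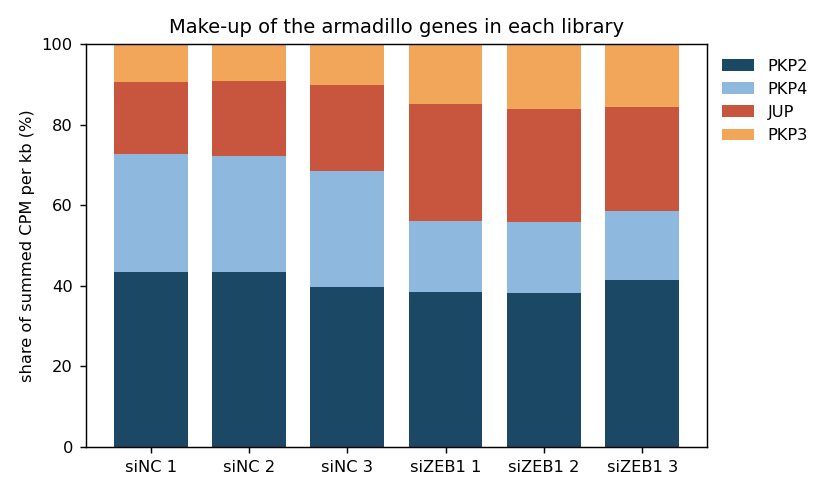
Share of PKP2, PKP4, JUP and PKP3 in their summed CPM per kilobase, in percent, for each of the 6 libraries. The PKP4 segment is smaller in all siZEB1 libraries, at 17.2 to 17.6%, than in all siNC libraries, at 28.8 to 29.4%, whereas the JUP and PKP3 segments are larger. Shares in a sum depend on each other.

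Ratios within a library do not depend on how libraries were scaled. The log2 ratio of PKP3 to PKP4 reads was -2.9 ± 0.078 with siNC and -1.5 ± 0.058 with siZEB1 (SD, n = 3 each), and that of PKP3 to PKP2 was -3.0 ± 0.14 and -2.24 ± 0.074. The ratio of JUP to CTNNB1, its close relative β-catenin, was -3.66 ± 0.17 and -2.84 ± 0.11. The ratio of EVPL to PPL, its partner, was -3.12 ± 0.04 and -4.51 ± 0.094, and that of DSP to PPL was 4.4 ± 0.19 and 3.74 ± 0.13. In these 5 ratios the groups did not overlap, and each had the smallest p that an exact two-sided permutation test of 3 against 3 libraries can give (p = 0.1, adjusted p = 0.12 over 6 ratios). The ratio of DSG2 to DSC2 overlapped between groups (exact permutation p = 0.4), and that of DSC2 to DSC3 could not be formed because of libraries at 0.

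Sequence near the start sites was read for the 6 members with an entry in the RefSeq promoter table (GRCh38.p14), which gives 250 bases before and 50 after each start. These members were DSP, DSG2, DSC2, DSC3, PKP4 and JUP, with 9 windows between them. PKP2, PKP3, PPL and EVPL were without an entry. The letters CAGGTG, the E-box core that ZEB1 zinc fingers are known to bind, were searched on both strands, where the reverse reads CACCTG. They were found in 1 window each of DSP, DSG2, DSC2 and JUP. The other windows of DSC2 and JUP and all windows of PKP4 and DSC3 held none. Of all 35116 windows in the table, 20.6% held 1 or more such matches and 3.49% held 2 or more. The related letters CAGGTA, or TACCTG in reverse, occurred only once in these 9 windows, in JUP, and in 9.83% of all windows. The matches are printed because they let genes that rose (JUP, DSP) be set beside genes not called or not tested (DSG2, DSC2), with the 6 matching letters in capitals, 5′ to 3′ on the strand of the gene.
DSP, 178 bases upstream, chr6:7541483-7541508 (+): gcggcgggcgCAGGTGgggaggggcg
DSP, 85 bases upstream, chr6:7541576-7541601 (+): agaaaccggcCAGGTGtggcctaggc
DSG2, 232 bases upstream, chr18:31497935-31497960 (+): gtcacggtccCAGGTGcgagtgcgag
DSG2, 116 bases upstream, chr18:31498051-31498076 (+): gcggcggccaCACCTGgagccgcgcc
DSC2, 156 bases upstream, chr18:31102562-31102587 (-): aactttctgtCAGGTGggcctcaggc
JUP, 54 and 43 bases upstream, chr17:41786012-41786032 (-): ccCACCTGccgagCAGGTGag

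Distances run from the RefSeq start site of each window to the first base of the match. In GENCODE 29 the farther match of DSP, the farther match of DSG2 and the match of DSC2 lie upstream of the annotated gene, and the nearer ones of DSP and DSG2 lie in an exon. The JUP pair faces in opposite directions with 5 bases between, and it lies in an exon, before the second of the start sites that RefSeq lists for JUP. The window of the other JUP start site held no match. JUP, DSP and DSG2 each had 2 CAGGTG matches in a window, and the CAGGTA match lay in the same JUP window as its pair. Such matches describe letters in a window and were not tested as binding sites.

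Relatives of the members were taken as a list of 12 other desmosomal and plakin genes, of which 7 were tested, 2 rose and 4 fell, with a median log2 fold change of -0.34. These counts and those of the lists that follow stand against 19.0% higher and 21.2% lower among all genes tested. PERP, a tetraspan membrane protein that desmosomes need in the skin, had 129 ± 6.01 CPM with siNC and 252 ± 5.4 CPM with siZEB1 (SD, n = 3 each), and it rose by 0.97 on the log2 scale (SE 0.059, adjusted p = 1.68e-09). Of the large plakins in the list, 3 fell, with longest transcripts of 15249 bases (PLEC), 24828 bases (MACF1) and 22431 bases (DST). EPPK1, with 16002 bases, was called higher on few reads. Among all 1803 genes of 6000 bases or more with at least 10 CPM, 29.3% were called lower, against 21.0% of the 1683 genes under 2000 bases, and the part of length in these falls was not tested. PLEC, or plectin, a linker of hemidesmosomes and filament networks, went from 565 ± 34.3 to 423 ± 19.5 CPM and fell by 0.42 (adjusted p = 2.43e-05). MACF1, which joins actin to microtubules, fell by 0.40 (adjusted p = 0.000826), and DST, which encodes the plakins of the dystonin family, fell by 0.34 (adjusted p = 0.0065). The DST groups overlapped, and its call was lost without siNC replicate 2 (-0.24, adjusted p = 0.0614). KAZN, whose product kazrin binds periplakin, fell by 0.64 (adjusted p = 0.000106), with an antisense gene over 24.9% of its exonic bases. EPPK1, or epiplakin, rested on 14, 18 and 15 reads with siNC and 38, 21 and 21 reads with siZEB1. Its call as higher (0.90, adjusted p = 0.0366) was lost without siZEB1 replicate 1 (0.55, adjusted p = 0.25), without siNC replicate 1 (adjusted p = 0.1), without siNC replicate 2 (adjusted p = 0.0689) and with DESeq2's Wald test (adjusted p = 0.0705). The cadherins of stratified epithelia were close to undetected, with DSG1, DSG4 and DSC1 below the filter at 0 to 9 reads a library.

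The filaments that desmoplakin anchors in simple epithelia are built from KRT8 and KRT18. Of 7 simple epithelial keratins, all tested, 2 rose and 0 fell, against 19.0% higher and 21.2% lower among all genes tested. Their median log2 fold change was 0.07. The count of lower keratins was 0 also at an unadjusted p under 0.05 and with DESeq2. KRT8 was at 3455 ± 160 and 3534 ± 200 CPM and KRT18 at 1418 ± 150 and 1460 ± 124 CPM (SD, n = 3 each), with adjusted p-values of 0.65 and 0.677. These 2 genes overlap on opposite strands, over 16.3% of the exonic bases of KRT18 and 7.6% of those of KRT8. Whether counting used the strand is not given in the sources used here. The sign of KRT18, at 0.04, turned without siNC replicate 1 and without siZEB1 replicate 2. KRT19 rose by 1.62 (SE 0.068, adjusted p = 1.11e-11) and KRT80 by 0.58 (adjusted p = 8.38e-06).

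The classical cadherins and catenins of adherens junctions, the closest relatives of these junction proteins, were read as 6 listed genes, of which 5 were tested, 2 rose and 0 fell, beside the same 19.0% and 21.2% of all genes tested. Their changes are set beside that of DSG2, without a test of the difference. CDH1, or E-cadherin, rose by 4.01 (95% interval 3.71 to 4.31) and CDH3, or P-cadherin, by 3.84 (95% interval 3.57 to 4.11), against 0.03 (95% interval -0.18 to 0.24) for DSG2. Both rose from low levels, with 26 to 54 reads of CDH1 and 38 to 49 of CDH3 in the siNC libraries. CDH1 went from 1.86 ± 0.532 to 30.4 ± 2.01 CPM, and CDH3 from 2.08 ± 0.194 to 29.9 ± 3.08 CPM (SD, n = 3 each). The catenin genes were not called, with CTNNA1 at -0.02 (adjusted p = 0.786) and CTNNB1 at 0.13 (adjusted p = 0.052). Scaling by the median of ratios made CTNNB1 a call (adjusted p = 0.0399), as did asking for 10 counts or more in each library (adjusted p = 0.0495).

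Of 17 genes of desmosome assembly, transport and turnover, all tested, 5 rose and 5 fell, where 40.2% of all genes tested were called, with a median log2 fold change of 0.02. Without siZEB1 replicate 3 only 3 were called higher, and without siNC replicate 2 only 3 were called lower. KIF3A, a subunit of the kinesin-2 motor that carries desmocollin 2 to the membrane, went from 38.2 ± 0.466 to 19.2 ± 2.6 CPM (SD, n = 3 each), a fall of 0.99 on the log2 scale (adjusted p = 2.22e-07). KIF5B, the heavy chain of kinesin-1, which carries desmoglein 2, fell by 0.36 (adjusted p = 0.00268), although its groups overlapped. GOLGA7B, a partner of the palmitoylating enzyme ZDHHC5, fell by 0.89 from 5.15 ± 0.579 CPM (adjusted p = 0.00049). GSK3B, a kinase that modifies the tail of desmoplakin, rose by 0.56 (adjusted p = 2.53e-05). FXR1, an RNA-binding partner of plakophilin 3, rose by 0.37 (adjusted p = 4.5e-05), and ECT2, which binds the PKP4 product in cytokinesis, rose by 0.46 (adjusted p = 0.000158).

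The rises of PKP3, JUP, PPL and PKP2 and the fall of PKP4 were each called under all 12 other ways of fitting the data, which are listed with the methods. Over these, the log2 fold change of PKP3 ran from 1.08 to 1.12, that of JUP from 0.90 to 1.02 and that of PPL from 0.78 to 0.89. The values of PKP2 lay between 0.27 and 0.36, and those of PKP4 between -0.33 and -0.29.

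**Figure D5:**
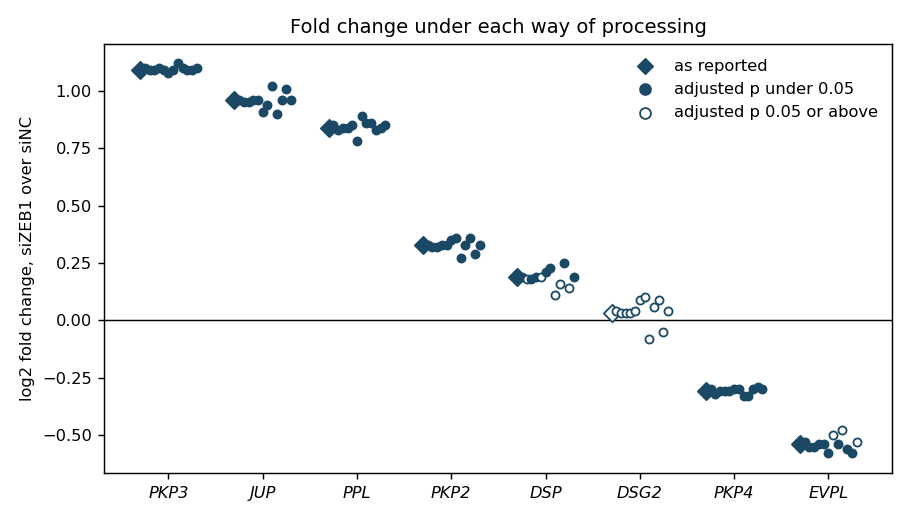
Log2 fold change of siZEB1 over siNC for each tested desmosomal gene, as reported (diamond) and under the 12 other fits (circles). Filled symbols are called at an adjusted p under 0.05 and open ones are not. PKP3, JUP, PPL, PKP2 and PKP4 are filled throughout, DSP and EVPL in part, and DSG2 is open throughout and lies on both sides of 0.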

How the data were processed

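The counts of reads per Ensembl gene were deposited by the authors without normalization, as whole numbers, 1 table per library. The submitters' processing notes name Trimmomatic, HISAT2, SAMtools, featureCounts and hg38. Versions, annotation and strand setting are not given in the sources used here. Of 32029 genes listed, 31059 were found by identifier in GENCODE 29 (GRCh38), which gave positions, exon lengths and overlaps.

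Genes were kept by edgeR's filterByExpr, scaled by TMM, and fitted in edgeR with a two-sided quasi-likelihood test over all 6 libraries without covariates. Library totals were 19040636 to 22357633 reads, and the biological coefficient of variation was 6.58%. Libraries within a group varied by 2.26 to 9.5 times counting noise (chi-square over degrees of freedom), so none was a copy. Ratios were compared by exact permutation tests.

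The alternatives were scaling by the median of ratios, scaling by total counts only, DESeq2's Wald test, no filter, at least 10 counts in every library, the replicate number as a block, each library left out, and a fold change above 1.5. Named genes were the members, ZEB1 and, from each further list, at most 6 genes called or above 100 CPM, by size of change. Members and lists were chosen with earlier results of these data known. Listed genes and markers that had no row in the tables (DSG3, CDH2, CDX1, KRT14, DCN, PTPRC, CDH5) were not analysed here. Among genes with a row, 0 were without reads in all libraries. Software was R 4.3.3, edgeR 4.0.16, DESeq2 1.42.0, scipy 1.17.1 and pandas 2.3.3.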

Additional observations from a re-analysis of the deposited data

How the results depend on the processing

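With a fold change above 1.5 required, 3 desmosomal genes were higher and 0 lower, in place of 5 and 2. With DESeq2's Wald test 1 was lower. With each library left out in turn, between 4 and 5 were higher and between 1 and 2 lower. The gene that came and went among the higher ones was DSP, and among the lower ones EVPL. Over all tested genes, the fits other than the main one called 2289 to 2936 higher and 2617 to 3284 lower. With libraries left out, the log2 fold change of DSG2 ran from -0.08 to 0.1 and that of KRT18 from -0.03 to 0.12. DSG2 was at -0.08 without siNC replicate 3 and -0.05 without siZEB1 replicate 3, and KRT18 was at -0.03 without siNC replicate 1 and -0.01 without siZEB1 replicate 2, with adjusted p-values from 0.426 to 0.93. The titles give both groups the replicate numbers 1 to 3, but libraries with the same number did not deviate together (r from -0.631 to -0.305 over 9394 genes). The libraries numbered 3 also had length shifts of opposite sign, so whether the numbers mark pairs cannot be told from these values. With the replicate number as a block, 4 members were higher and 2 lower, 2289 and 2679 of all genes were called, and DSP (adjusted p = 0.0867) and EPPK1 (adjusted p = 0.0562) were not called. The causes of these changes were not tested. Depth limits DSC2 and DSC3, for which changes of the size seen in PKP3 would rest on very few reads.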

Other observations

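Keratin 5, a keratin of the basal layer of stratified epithelia, was abundant in these colorectal cells, and it was singled out after its values were seen. KRT5 had 43207 to 47491 reads in the siNC libraries and 37566 to 40313 in the siZEB1 libraries, or 2167 ± 64.9 and 2060 ± 85.2 CPM (SD, n = 3 each). It was not called (log2 fold change -0.07, with an edgeR adjusted p of 0.247). Other genes typical of stratified epithelia had few reads, with 2 to 4 of DSG1 and 3 to 20 of PKP1, both desmosomal, and 0 to 4 of TP63, a transcription factor, in any library.

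The colonic markers did not move together. CDX2, an intestinal transcription factor, went from 103 ± 7.08 to 41.8 ± 2.66 CPM and fell by 1.30 on the log2 scale (adjusted p = 8.28e-10), whereas VIL1, the brush border protein villin, rose by 2.34 (adjusted p = 1.69e-10). Exons of USP37 on the opposite strand cover 44.0% of the exonic bases of VIL1.

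Of the other markers, the fibroblast genes COL1A1 and PDGFRB were at 10.2 and 3.98 CPM with siNC and at 8.70 and 5.33 CPM with siZEB1, and PDGFRB was called as higher (0.42, adjusted p = 0.0281). LUM, also a fibroblast marker, had 0 reads with siNC and at most 1 read in a siZEB1 library, and DCN was not listed. The summed endothelial markers PECAM1 and VWF lay between 1.54 and 2.72 CPM in all libraries.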
